A study of Arabidopsis thaliana with 6 samples.

Results

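Transcripts of 7 genes of storage-oil breakdown and peroxisomal fatty acid beta-oxidation, namely SDP1, LACS6, MFP2, AIM1, PKT3, ECH2 and ECI1, were followed in Arabidopsis rosettes under water. They were taken by gene name, each with 1 probe set of the 22746 on the array. SDP1 and AIM1 were found in the annotation of the array. The probe sets of LACS6, MFP2, PKT3, ECH2 and ECI1 were identified only through the study's list of genes upregulated on these same arrays. The increase of those 5 genes was therefore fixed by the way they were found, and their values are given as a description, with no p-value of their own. A threshold count that includes them is part of that description. All 7 genes also stand in the study's list of fatty acid genes changed by the treatment, so SDP1 and AIM1, although tested, are not independent evidence of a direction.

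The treated plants were 4-week-old wild-type plants of the ecotype Columbia, held 5 to 10 cm below the water surface in the light for 48 h, a condition the study calls light submergence. The untreated control plants had the same genotype and the same stated age of 4 weeks, and were harvested at 0 h. Each condition had 3 biological replicates, each taken by the study's methods from several plants, and each replicate was hybridised to 1 ATH1 array. Both groups came from a day of 16 h of light and 8 h of darkness. The controls were taken 48 h earlier and were younger by that time, and by the methods the light was weaker during submergence than during growth. Submergence, age and light cannot be told apart on these arrays. The labels name leaves as the tissue and the methods name rosettes. Of 20 marker genes for mesophyll, seed, epidermis, vascular tissue and root, 2 had a named probe set, and none of these marks mesophyll, so the tissue label was not checked further. A change in the number of cells of a type and a change in RNA per cell cannot be told apart in such material.

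Oil stored as triacylglycerol is opened by lipases, and SDP1 (SUGAR-DEPENDENT1) is the lipase that starts this breakdown at the oil body of germinating Arabidopsis seeds. The freed fatty acids enter the peroxisome, are activated to their CoA esters by LACS6 and its relatives, and are shortened by acyl-CoA oxidases, by the multifunctional proteins MFP2 and AIM1 and by 3-ketoacyl-CoA thiolases such as PKT3. Double bonds in the chain need further enzymes, among them ECH2 and ECI1. The pathway is best known from seedlings that live on oil, and in leaves it also serves membrane lipid turnover in senescence and starvation and the last steps of jasmonate synthesis.

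The signals of all 7 genes were higher on every submerged array than on any control array. Values are log2 signals of the authors' MAS 5.0 summary, in which 1 unit is a doubling, and differences between the conditions are log2 fold changes with standard errors from limma. Across the 7 genes the log2 fold change lay between 0.89 for AIM1 and 2.47 for MFP2, with a median of 1.66. The median over all 22746 probe sets was -0.26, with quartiles at -1.28 and 0.67. SDP1 and AIM1 passed the threshold for a higher signal, which asks for a 1.5-fold difference and an adjusted p below 0.05, and the other 5 of the 7 genes met the same limits. Of all probe sets, 18.3% were called higher and 24.3% lower by this rule, and 23.1% had 3 submerged arrays all above the 3 control arrays. With 5 of the 7 found through a list of upregulated genes, the count of 7 is not to be read against these shares. Nor are the range and median of the 7 to be read against the median and quartiles of all probe sets.

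**Figure D1:**
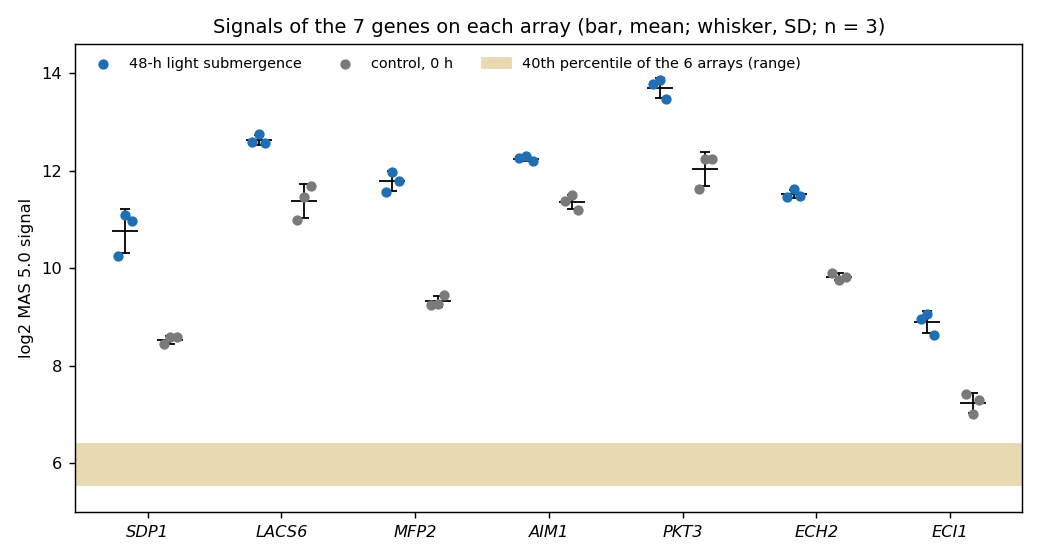
Log2 MAS 5.0 signal of the 7 genes on each of the 6 arrays, with submerged plants in blue and controls in grey; each horizontal bar is the mean of 3 arrays, each whisker the SD, and the band is the range of the 40th percentile of the arrays. No gene has overlapping groups, and the smallest gap between the lowest submerged and the highest control array is 0.70 for AIM1.

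SDP1, the lipase at the head of the pathway, had log2 signals of 10.25, 11.08 and 10.96 on the submerged arrays, against 8.44, 8.58 and 8.58 on the control arrays. The controls lay within 0.15 of each other, and submerged replicate 1 stood apart from the other submerged arrays, by 0.51 below the mean of its group. The means were 10.77 ± 0.45 under submergence and 8.53 ± 0.08 in the controls (SD, n = 3 each). The transcript rose 4.70-fold, a log2 fold change of 2.23 with a standard error of 0.21 (adjusted p = 1.38e-05 from limma), and 2.49 without submerged replicate 1. The related SDP1-LIKE gave no usable level, with log2 signals of 1.33, 1.35 and 0.58 under submergence and 0.63, 2.33 and 3.93 in the controls. All 6 lay below the 40th percentile of their arrays, the level taken here as background, so no fold is given.

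LACS6, a long-chain acyl-CoA synthetase of the peroxisome, had signals of 12.59, 12.76 and 12.56 under submergence and 10.99, 11.46 and 11.68 in the controls. Here the controls were the more variable group, with an SD of 0.36 against 0.10 for the submerged arrays. The transcript was 2.39-fold higher, with a log2 fold change of 1.26 and a standard error of 0.19.

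MFP2 and AIM1 are the multifunctional proteins, each of which carries the hydratase and dehydrogenase activities of the spiral. In Arabidopsis, MFP2 is associated with long acyl chains and seedling growth, and AIM1 with shorter chains, flower development and jasmonate synthesis. MFP2 had signals of 11.57, 11.98 and 11.79 under submergence, against 9.24, 9.26 and 9.45 in the controls. AIM1 had signals of 12.25, 12.31 and 12.19 under submergence, against 11.37, 11.49 and 11.20 in the controls. Both groups of arrays were tight for each gene, and the step was far larger for MFP2.

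MFP2 was 5.53-fold higher (95% interval 4.38 to 6.98), the largest change of the 7, and 5.64% of all probe sets had a larger log2 fold change. As MFP2 was found through its increase, its interval and this share are only a description. AIM1 rose 1.86-fold (95% interval 1.49 to 2.32, adjusted p = 0.000473 from limma), the smallest change of the 7, and 20.2% of all probe sets had a larger one. Set against AIM1 on the same array, the log2 signal of MFP2 differed by -0.68, -0.32 and -0.40 under submergence and by -2.13, -2.24 and -1.75 in the controls. The gap between the 2 probe sets thus changed by 1.57 with a standard error of 0.18, or 2.97-fold, without overlap between the conditions. Since MFP2 was found through its increase, this difference is a description and no test of it is given. The difference was 1.47 to 1.72 when 1 array was left out. It compares how far each probe set moved and says nothing of which transcript was more abundant. Of 6 pairs of related genes considered, the other 5 had a partner without a named probe set or without a usable signal.

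PKT3, also named KAT2 or PED1, is the 3-ketoacyl-CoA thiolase that closes each round by releasing acetyl-CoA. Its signals were 13.77, 13.86 and 13.46 under submergence and 11.63, 12.24 and 12.24 in the controls. Control replicate 1 was the lowest array for PKT3, as it was for LACS6, while the other control arrays agreed to the second decimal. The transcript was 3.16-fold higher (95% interval 2.28 to 4.38), and the interval is only a description, as PKT3 was found through its increase.

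ECH2 and ECI1 act on unsaturated fatty acids, ECH2 as a hydratase and ECI1 as an isomerase that moves a double bond into the position the spiral can use. ECH2 had signals of 11.47, 11.62 and 11.48 under submergence and 9.90, 9.75 and 9.83 in the controls, with SDs of 0.09 and 0.08. ECI1 had signals of 8.97, 9.07 and 8.63 under submergence and 7.42, 7.01 and 7.29 in the controls. It came nearest to background among the 7 genes, and even its lowest array was 0.66 log2 units above it. ECH2 was 3.23-fold higher and ECI1 3.14-fold higher, with standard errors of the log2 fold change of 0.13 and 0.22.

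Ordered by the size of the change in the deposited signals, the genes ran MFP2, SDP1, ECH2, PKT3, ECI1, LACS6 and AIM1. The order was set by the fold changes themselves, so the steps between neighbours are described without a test. On each array the log2 difference between the neighbouring genes was taken for the 6 pairs, and its change between the conditions is the step. The largest step was the one between SDP1 and ECH2, at 0.54 with a standard error of 0.25. ECH2, PKT3 and ECI1 differed by 0.03 and 0.01 in their log2 fold changes, with standard errors of 0.26 and 0.30.

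**Figure D2:**
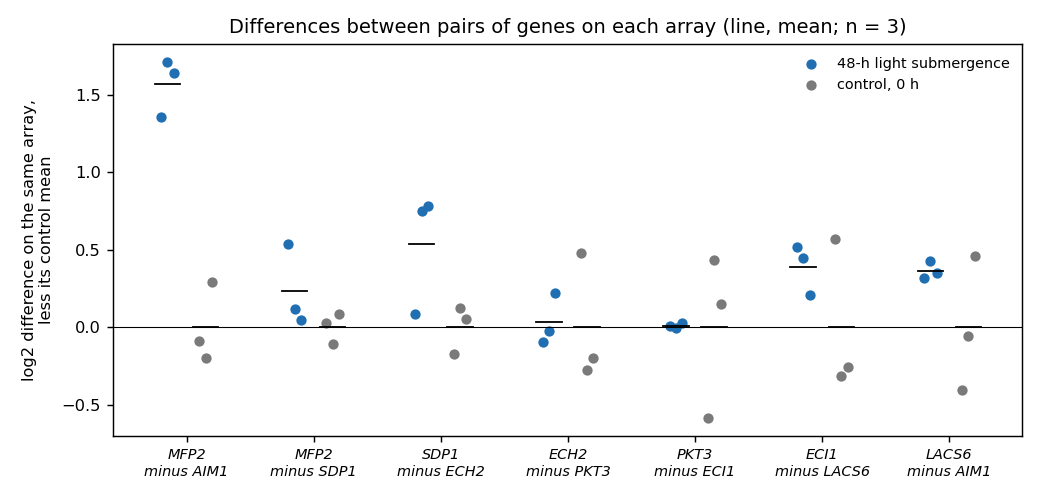
Log2 difference between the signals of 2 genes on the same array, less the mean of that difference on the control arrays, for MFP2 minus AIM1 and for the 6 pairs of neighbours in the order of change; points are arrays, lines are means of 3 arrays, submerged in blue and control in grey. For MFP2 minus AIM1 the means of the conditions are 1.57 apart, and for SDP1 minus ECH2 they are 0.54 apart.

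Among the submerged arrays, replicate 2 was above the mean of its group for 7 of 7 genes, by a median of 0.16. Replicate 1 was above it for 3 of 7 and replicate 3 for 2 of 7. In the controls the numbers were 3, 4 and 5 of 7 for the 3 arrays. The largest deviation was 0.51 below the group mean, for SDP1 on submerged replicate 1. The gap between the groups ran from 0.70 for AIM1 to 2.12 for MFP2. The SD of a gene within a condition was 0.06 to 0.45 under submergence and 0.08 to 0.36 in the controls, where the median SD of all probe sets was 0.40 and 0.32. Those medians include dim probe sets, while the 7 genes were above background on every array. The comparison is therefore not between probe sets of like signal.

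**Figure D3:**
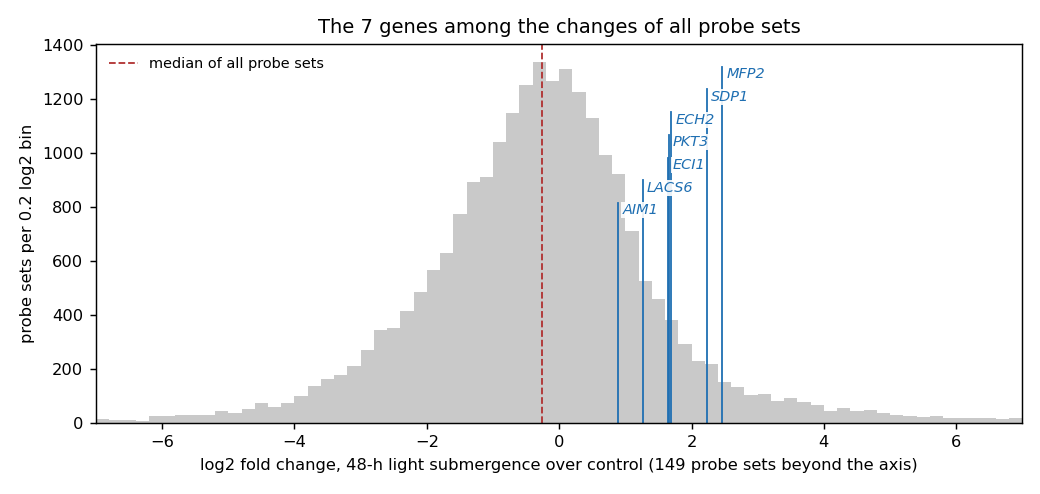
Histogram of the log2 fold changes of all 22746 probe sets (submergence over control, bins of the width given on the axis), with the 7 genes marked by blue lines and the median of all probe sets, -0.26, by a dashed line. The 7 genes lie to the right of that median, between 0.89 and 2.47. For the 5 found through the list of upregulated genes, an increase was fixed by the way they were found. A larger change than that of AIM1, the lowest of the 7, was seen for 20.2% of all probe sets.

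The level of all probe sets shifted with the scaling of the arrays, from a median log2 fold change of -0.26 as deposited to 0.02 after quantile normalization. The changes of the 7 genes were 0.91 to 2.43 after quantile normalization. The order of ECH2, PKT3 and ECI1 was reversed there, at 1.60, 1.81 and 1.85. Relative to the median of all probe sets as deposited, the log2 fold change was 1.15 for AIM1 and 2.72 for MFP2.

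The profiles of the 7 genes over the 6 arrays were also compared with those of the 13436 probe sets that the annotation gives to 1 gene. Likeness was the root-mean-square difference of the log2 signals after subtracting the mean of each probe set, and it is dominated by the size of the step between the conditions. Among the 7 genes, ECH2 and ECI1 were the most alike, at 0.13, followed by SDP1 and MFP2, at 0.20. Outside them, the 2 nearest profiles to SDP1 were those of AT2G19710 and PUB43, a U-box protein, at 0.10 and 0.11. The nearest to MFP2 were AT1G32460 and ATG8B, an autophagosome protein, both at 0.11. The nearest to AIM1 were AT3G02360 and AT4G05060, at 0.06 each, and those to LACS6 were AT2G23890 and AT3G09735, at 0.07 and 0.08. PKT3 was nearest to AT1G68140 and AT3G52570, at 0.08 and 0.09, ECH2 to AT3G56140 and GPT, at 0.04 each, and ECI1 to AT4G10925 and AT5G04170, at 0.05 and 0.08.

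Other genes of the pathway and of roles around it, photorespiration and jasmonate synthesis among them, were called in both directions. The 2 called lower were HPR, an enzyme of photorespiration, and AT4G00520, whose call was not stable. In 8 lists of 82 genes, grouped by role and including the 7, 14 genes were named by the annotation, 17 only through the study's list of upregulated genes, and 51 had no name here. Apart from SDP1 and AIM1, the annotation named 12 genes, of which 4 rose (33.3%), 2 fell (16.7%) and 6 did not pass, where 18.3% and 24.3% of all probe sets were called. Their median log2 fold change was 0.00, which counts SDP1-LIKE, AT2G30650 and ICL, genes below background on all 6 arrays and without a usable change. It therefore does not show that the measurable genes were unchanged. Of the 12, 7 were above background on all 6 arrays and 3 on none.

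Among genes of lipolysis, AT4G24160, which the study lists as a lysophosphatidic acid acyltransferase, had signals of 9.79, 10.36 and 9.67 under submergence and 8.56, 8.49 and 8.20 in the controls. It rose 2.87-fold (adjusted p = 0.000164 from limma). AT3G14360, listed as a triacylglycerol lipase, was above background on none of the submerged and 2 of the control arrays. With background in place of the submerged level it was 1.52-fold lower. Background was itself lower on the submerged arrays, at 5.55 to 5.84, than on the controls, at 6.17 to 6.39, and that shift is part of the fold. The measured signals had a log2 fold change of -1.06, which did not pass in limma (adjusted p = 0.101).

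Among the auxiliary genes, SDRB, a reductase for unsaturated acyl-CoA, rose on both of its probe sets, with log2 fold changes of 0.79 and 0.97. The acyl-CoA thioesterase gene AT1G01710 rose 1.77-fold (adjusted p = 0.00338 from limma). AT4G00520, another such gene, fell by 1.03 on the log2 scale (limma, adjusted p = 0.0255), while its second probe set, at -0.93, did not pass. The jasmonate-related CoA ligase gene OPCL1 rose 1.57-fold (adjusted p = 0.0236 from limma). The calls of OPCL1 and AT4G00520 were not stable and were lost after quantile normalization, among other alternatives. AT2G30660, a hydroxyisobutyryl-CoA hydrolase gene, had a log2 fold change of 0.85 with a standard error of 0.60, and its neighbour AT2G30650 was below background on all 6 arrays.

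HPR, the hydroxypyruvate reductase of photorespiration and so an enzyme of a different peroxisomal pathway, went the other way. Its log2 signals were 11.83, 11.36 and 12.64 under submergence and 14.29, 14.15 and 14.03 in the controls. The groups did not overlap, and the log2 fold change was -2.21 with a standard error of 0.29 (adjusted p = 0.000112 from limma). Of the 6 photorespiratory genes listed, it was the only one named, so nothing is said of that pathway.

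The glyoxylate cycle gene ICL, for isocitrate lyase, was below background on all 6 arrays, with log2 signals of 3.84, 1.34 and 2.50 under submergence and 1.73, 3.39 and 3.06 in the controls. No change can be read at this level. PEX4, a peroxin of the import machinery, had signals of 10.57, 10.54 and 10.30 under submergence and 10.12, 10.28 and 10.48 in the controls. The ranges overlapped, and the difference of 0.18 did not pass in limma (adjusted p = 0.395).

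A further 12 pathway genes were named only through the study's list of upregulated genes, and their increases are likewise a description. Their log2 fold changes ran from 0.46 to 2.18, and 11 of the 12 passed the threshold, the exception being SSE1, the peroxin PEX16. CSY3, the peroxisomal citrate synthase through which acetyl-CoA can leave the organelle, was 4.52-fold higher, with 11.82, 11.91 and 11.78 under submergence and 9.79, 9.52 and 9.68 in the controls. PXN, the peroxisomal NAD carrier, was 3.34-fold higher, and the peroxin genes PEX13 and PEX11C had log2 fold changes of 1.67 and 1.52. ACX3, an acyl-CoA oxidase gene, was 2.28-fold higher, on a probe set of the type that can match several similar transcripts, and IBR3, of indole butyric acid metabolism, was 2.88-fold higher. AOC3, an allene oxide cyclase gene of jasmonate synthesis, was above background on the submerged arrays but on none of the controls, and was at least 1.35-fold higher, with background in place of the control level.

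**Figure D4:**
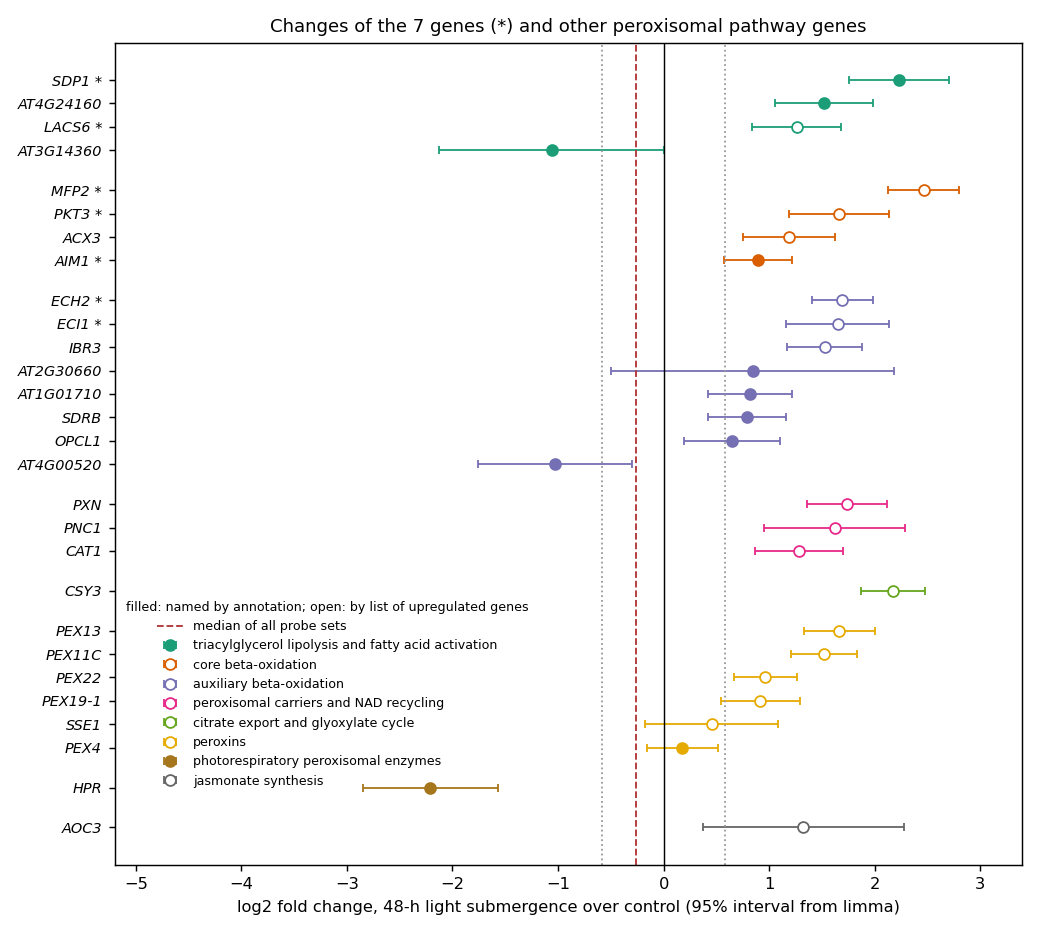
Log2 fold change (submergence over control) with its 95% interval from limma for the 7 genes, marked by an asterisk, and other pathway genes above background on at least 1 array; filled points were named by the annotation, open points only through the list of upregulated genes, dotted lines mark 1.5-fold and the dashed line the median of all probe sets. The filled points lie on both sides of 0, with HPR lowest at -2.21. The open points all lie to the right of 0, a side fixed by that list, and their intervals are only a description. The points of AT3G14360 and AOC3 rest on signals not above background in 1 condition.

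Markers of other tissues could be followed for 2 genes. The epidermal receptor kinase gene CR4 was above background on none of the submerged and 2 of the control arrays. With background in place of the submerged level, its signal was 1.72-fold lower, and the lower background of the submerged arrays is part of that fold. The limma call (adjusted p = 0.00189) is of the measured signals, which lay below background on the submerged arrays, and not of that fold. PYK10, a root beta-glucosidase gene, was above background on none of the submerged and 1 of the control arrays, so no fold is given. The part of cell composition in the changes of the 7 genes was not tested.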

How the data were processed

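The authors hybridised RNA of each sample to an ATH1 array and deposited log2 signals of 22746 probe sets, summarised with MAS 5.0 (version not given in the sources used here) and scaled to a trimmed mean of the linear signal of 495.2 to 496.3 on each array. Columns were assigned to samples by the labels. Arrays of a condition correlated at 0.909 to 0.924. Of the probe sets, 13513 were annotated with 1 gene, 503 with several and 8730 with none; 13436 of the 13513 matched a locus of the TAIR10.1 gene table, and 946 unannotated ones were named through the 1998 rows used here of the study's list of changed genes, all upregulated. Values in that list were not used.

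All probe sets were compared by limma 3.58.1 (R 4.3.3) (variances moderated along a trend with the mean, no replicate block), with Benjamini-Hochberg adjustment over all of them. The study's methods give the 1.5-fold minimum and name no test for the arrays. The script was tested on simulated data. For genes with more than 1 probe set the brightest stood for the gene. Signals were called above background when they exceeded the 40th percentile of their array, since no detection calls were used. The p-values set the difference between the conditions against the spread between biological replicates, as moderated by limma over all probe sets.

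The genes, lists and tests were chosen with earlier results of these data known. Named were the 7 genes, up to 4 called genes per list and direction, and the 2 most similar profiles per gene; list members that did not pass, and the comparison of neighbours in the order of change, were added with their values in view. The exact permutation tests of differences between genes are not reported, since members of these pairs were found through their increase. The alternatives comprised a scaling to the 75th percentile, quantile normalization, 32 added to the linear signal, a filter that asked for signal above background on 3 or more arrays, no variance trend, a replicate block, other fold minimums, background at the 25th percentile, and leaving out each array. Figures were drawn with matplotlib 3.10.9.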

Additional observations from a re-analysis of the deposited data

How the results depend on the processing

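All 7 genes kept their direction and their call under each of the 12 alternative fits, which for the 5 genes found through the list of upregulated genes is no sign of stability, with log2 fold changes of 0.82 to 0.96 for AIM1, 2.07 to 2.49 for SDP1 and 2.37 to 2.57 for MFP2 when 1 array was left out; at a minimum of 2-fold, 6 of 7 passed, without AIM1. Deviations of same-numbered arrays correlated at -0.01 to 0.06, and those of differently numbered arrays at -0.06 to 0.03. Such values give no clear sign that replicate numbers pair the samples, but they cannot exclude it. With the replicate block, 9339 probe sets were called, against 9684 without it, and the 7 genes and 8 pathway genes named by the annotation kept their number of calls. Of those 8 pathway genes, SDP1 and AIM1 included, 6 were higher and 2 lower. At least 2-fold, 4 were called and 2 were higher; after quantile normalization 1 was lower, and 1 to 3 were lower when 1 array was left out. OPCL1 lost its call at the 2-fold minimum, after quantile normalization (0.51), without the variance trend (0.65), and without control replicate 1 or 3 or submerged replicate 1 or 3 (0.43 to 0.69). AT4G00520 lost it after quantile normalization (-0.70), without the variance trend (-1.03), and without control replicate 2 or 3 or submerged replicate 2 or 3 (-0.97 to -0.85). ICL, below background on every array, had a log2 fold change of -0.17, which was 0.35 on the quantile scale and ranged between -0.81 and 0.44 over the fits that lacked 1 array. AT3G14360 passed without the variance trend (adjusted p = 0.0231), and AT2G30650, below background on all arrays, without submerged replicate 1 (adjusted p = 0.0283), both from limma. The difference between MFP2 and AIM1 was 1.52 to 1.57 under the other scalings and the offset. The number of arrays limits the precision, and dim probe sets such as ICL and SDP1-LIKE carry no usable change.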
